A study of Mus musculus with 6 samples.

Results

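The genes of the cytosolic ribosomal proteins, with the paralogue pair Rpl22 and Rpl22l1 described singly, were followed in the thymus of Rag2/pfp KO and wild-type (WT) mice. Members were the array probes whose annotated symbol is Rpl or Rps with a number, or Rplp0, Rplp1, Rplp2 or Rpsa, without the ribosomal S6 kinases and without pseudogenes. The symbol pattern matched 91 probes, of which 7 probes of 6 S6 kinase genes were left out, and no remaining gene was a pseudogene in the RefSeq table used. This gave 84 probes of 66 genes, out of 25697 probes and 16593 named genes on the array. Of the 66 genes, 35 encode proteins of the large subunit, 23 encode proteins of the small subunit and 6 are paralogues of ribosomal protein genes. The pattern also matched 2 genes that are not subunit genes, Rps19bp1, which encodes a protein that binds Rps19, and Rps23rg1, a retrogene of Rps23.

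Total RNA from 3 Rag2/pfp KO and 3 WT thymus samples was measured with Illumina MouseRef-8 version 2 BeadChips, each sample on an array of its own. The Rag2 protein works with Rag1 to cut and join the gene segments of antigen receptors, and pfp is an older name of the perforin gene Prf1. The sources used here state no strain, age or sex and do not tie the samples to separate animals, so p-values cover the scatter among these arrays, part of which may be technical. Arrays are named by genotype and replicate number, and values of a genotype are listed in the order of replicates 1, 2 and 3.

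Ribosomal proteins assemble with ribosomal RNA into the large and the small subunit of the ribosome, which together translate messenger RNA. Their messenger RNAs typically begin with a run of pyrimidines, the terminal oligopyrimidine tract, through which their translation is tied to growth signals. Rpl22 is a large-subunit protein that the ribosome can do without for bulk translation, and mice that lack it have a block in the development of alpha-beta T cells in the thymus. Rpl22l1 encodes a closely related protein that can take its place, and Rpl22 is known to restrain the expression of Rpl22l1.

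Listed start sites of the members are shown here because the start-site tract is the sequence feature that the family is known for and because most subunit genes varied together over the arrays. RefSeq promoter windows of GRCm38.p6, from 250 bases before to 50 bases after each listed start, matched 57 of the 66 members. A C at the listed start followed by at least 4 bases that are each C or T was found for 11 of these 57 genes (19.3%), all of them subunit genes, and for 3.01% of all 27025 genes in the table. The letters CCGGAAG on either strand, a core bound by ETS family factors, were in the windows of 22 of the 57 members (38.6%) and of 9.93% of all genes. Neither was found in the windows of Rpl22 or Rpl22l1. By these rules most subunit genes lacked the tract and most lacked the core, which were found in 22.4% and 40.8% of 49 subunit genes. The other genes printed below were picked from those with the tract. A match is a description of the letters at an annotated start and not a measured site. Only a run that begins at the listed start was counted. The pyrimidine run just after the listed start of Rpl22l1 was therefore not counted. The windows below run from 15 bases before to 15 bases from the start onwards, on the strand of the gene, and capitals mark the pyrimidine run that begins at the listed start. Rpl22 has 2 listed starts.
Rps6, chr4:86857353-86857382, minus strand: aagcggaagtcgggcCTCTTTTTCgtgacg
Rpl35, chr2:39005117-39005146, minus strand: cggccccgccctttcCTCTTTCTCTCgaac
Rpl28, chr7:4792950-4792979, plus strand: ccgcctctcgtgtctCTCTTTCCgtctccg
Rps10, chr17:27635230-27635259, minus strand: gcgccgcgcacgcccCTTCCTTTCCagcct
Rpl38, chr11:114668565-114668594, plus strand: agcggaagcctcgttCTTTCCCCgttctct
Rpl22, upstream start, chr4:152324421-152324450, plus strand: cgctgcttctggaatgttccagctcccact
Rpl22, downstream start, chr4:152325711-152325740, plus strand: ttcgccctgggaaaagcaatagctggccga
Rpl22l1, chr3:28805493-28805522, plus strand: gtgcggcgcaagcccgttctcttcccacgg

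Between 13729 and 13878 probes per array were above background (detection p under 0.05), and the median signal ranged from 172.1 to 185.9 units. Of 8 measured markers of CD4 CD8 double-positive thymocytes, 6 were lower in the KO, with a summed signal of 12532 to 23989 units in the KO and 59060 to 76351 units in the WT. Markers of double-negative thymocytes were higher in the KO for 5 of 7 and those of cortical epithelium for 6 of 7, while those of B cells were lower for 3 of 4 and those of medullary epithelium for 2 of 7. The part of these marker changes in the result for Rpl22 was not tested. Markers of other tissues also differed between arrays. The summed signal of 5 heart markers was 25472, 68369 and 2657 units on the KO arrays, against 1132, 67385 and 2598 units on the WT arrays, and that of 4 fat markers was 34942, 55470 and 3329 units on the KO arrays, against 3643, 54698 and 10777 units on the WT arrays. Both lists were highest on KO 2 and WT 2, with KO 1 next. Xist, transcribed from the inactive X chromosome of female cells, read 9.40, 8.80 and 5.02 in the KO and 9.16, 4.90 and 9.37 in the WT (log2 signal), so each genotype held arrays with high and with low Xist. In RNA from whole tissue, fewer cells of a type and less RNA per cell cannot be told apart.

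Many tested member genes had probes among the brightest of the array. A probe was tested when it was above background on at least 3 of the 6 arrays, which held for 69 member probes of 58 genes (14097 probes of 9849 genes on the whole array). Where a gene had several tested probes, the brightest on average stood for it. Of the 58 genes, 33 had a mean signal in the top 1% of all probes, and their median mean signal was 16838 units, against 703 units for all tested genes. Rplp1, an acidic protein of the ribosomal stalk, reached 61806 units on WT 3, where the highest signal of any probe on any array was 66435 units. Whether differences between such bright probes are compressed was not tested.

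A group of 8 member genes had no tested probe. Rpl14, Rpl17, Rplp2, Rps23 and Rpsa are ordinary subunit genes, and Rpl22l1, Rpl39l and Rps23rg1 were the others. All of their probes were above background on no array, except that 1 of the 2 Rpsa probes was above it on KO 2 and KO 3. Their levels remain unmeasured here, and since 5 of them belong to the ribosome of every cell, a member probe at background does not show that its gene was silent.

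Rpl22 was higher in the Rag2/pfp KO thymus, and no other of the 58 tested genes passed the threshold. The fit used limma across all tested probes, with a Benjamini-Hochberg adjusted p of 0.05 as the threshold and each difference given as KO minus WT on the log2 scale. At this threshold 6.09% of all tested genes were higher and 5.57% were lower, against 1 of 58 (1.72%) and 0 of 58 members. No member other than Rpl22 reached an unadjusted p under 0.05 in limma, where 14.3% of all genes were higher and 14.2% lower. Among the alternatives, members other than Rpl22 were called in 3 fits. Rpl3l was called without WT 2 and without both replicate 2 arrays, and array weights called 7 members higher and 13 lower, in a fit that called 37.2% of all genes higher and 37.8% lower and whose weights did not converge. The next lowest adjusted p among the members was 0.271.

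Differences of the members were small as well as short of the threshold. Their median was −0.07, against 0.01 over all 9849 genes, and 41 of the 58 were below 0. The median was −0.01 with arrays centred on their median signal in place of the quantile step, with 30 of the 58 below 0, and 0.07 without KO 2, with 12 below 0, so the side of 0 on which the family lay was not fixed. The 95% interval of the difference lay within a 2-fold change in both directions for 52 of the 58 genes (89.7%), and for 50.7% of all tested genes. Apart from Rpl22 and the paralogue Rpl3l, every tested gene differed by less than 0.5 between the genotype means of its brightest probe, while a dimmer probe of Rps24 differed by −0.55 (adjusted p = 0.462).

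**Figure D1:**
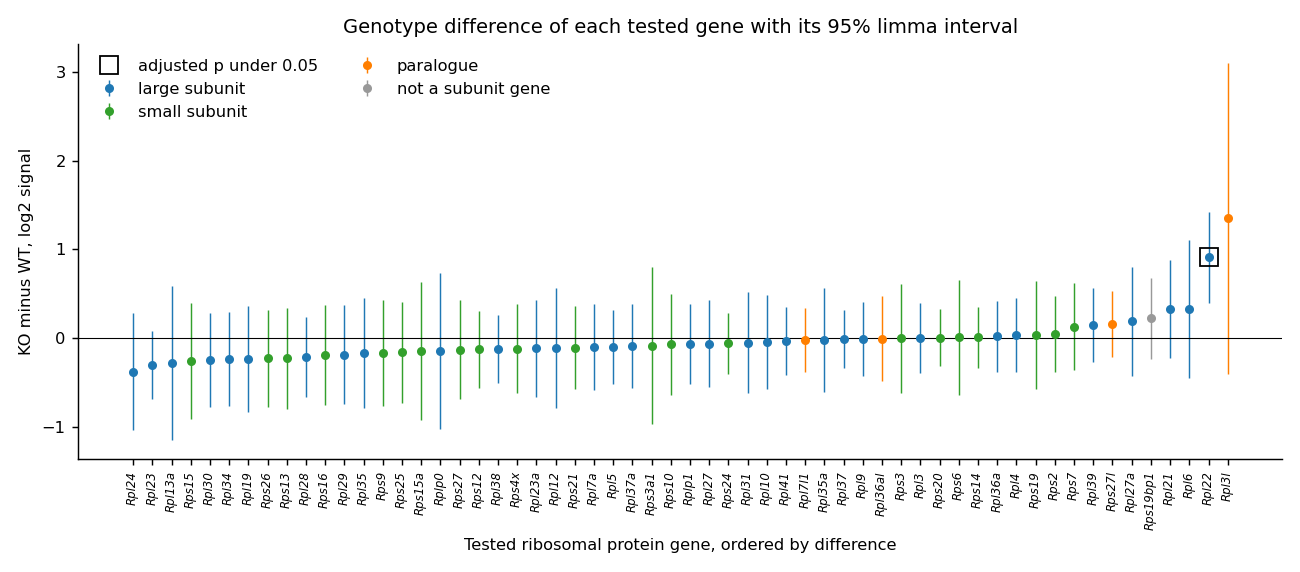
Difference of each of the 58 tested ribosomal protein genes, KO minus WT in log2 signal (vertical axis), ordered from lowest to highest, with the 95% interval from limma as bars and the kind of gene by colour. Rpl22, boxed, is the gene whose adjusted p is under 0.05; Rpl3l has a larger difference of 1.35 but an interval that spans 0.

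Rpl22 read 12.73, 12.34 and 13.05 on the KO arrays, against 11.76, 11.75 and 11.88 on the WT arrays (log2 signal). Every KO array was above every WT array, a separation with the KO higher that 16.9% of all tested genes showed, and the WT values lay close together while the KO values spread more. In signal units before normalization, the same probe gave 7338, 4659 and 8065 in the KO and 3746, 3648 and 4055 in the WT. The means were 12.71 ± 0.36 in the KO and 11.80 ± 0.07 in the WT (SD, n = 3 each). Rpl22 therefore rose by 0.91 (SE 0.21, 95% interval 0.40 to 1.42), a 1.88-fold higher signal, with an adjusted p of 0.0458 in limma. The call lies close to the threshold. It held without KO 2 (1.09, adjusted p = 0.0230), and it was lost without KO 1 (0.90, adjusted p = 0.159), KO 3 (0.74, adjusted p = 0.10), WT 1 (0.89, adjusted p = 0.161), WT 2 (0.88, adjusted p = 0.0708) or WT 3 (0.95, adjusted p = 0.148). It was also lost with median centring (adjusted p = 0.0647) and with no detection filter (adjusted p = 0.0564). From 6.09% in the main fit, the share of all tested genes called higher fell to 0.67% without KO 1 and 2.37% without KO 3. It fell to 0.883% without WT 1 and 0.751% without WT 3, and rose to 7.44% without WT 2.

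The change of Rpl22 was set against that of the other 52 tested subunit genes on the same array. For this, each gene was expressed as its deviation from its own mean over the 6 arrays, and the median deviation of the other subunit genes was subtracted from that of Rpl22. The resulting values were 0.41, 0.47 and 0.63 on the KO arrays, against −0.65, −0.36 and −0.50 on the WT arrays. All KO values were above 0 and all WT values below it. Rpl22 was not alone in this. With the same median subtracted, Rpl21 and Rpl39 also lay above 0 on all KO arrays and below 0 on all WT arrays. The share of genes with such a separation was not computed. For Rpl22, the difference of 1.01 (KO 0.51 ± 0.11, WT −0.50 ± 0.14, SD, n = 3 each) had p = 0.10 in a two-sided exact permutation test. This is the smallest p that 3 against 3 arrays allow. The difference ranged from 0.93 to 1.08 when any array was left out. This measure was chosen after the data were seen, and it shows unequal change within arrays, not a level of one gene against another.

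Rpl22l1, the paralogue, gave no measured level in either genotype. Its probe read 136, 137 and 145 units on the KO arrays, against 131, 146 and 150 units on the WT arrays, with detection p-values between 0.190 and 0.604. No array was above background, so no fold change is given, and the within-array ratio of Rpl22l1 to Rpl22 was not computed. Rpl39l, the paralogue of Rpl39, was above background on no array either.

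Of the other paralogues, 4 were tested and none passed. Rpl3l, the form of Rpl3 found in heart and skeletal muscle, read 8.04, 9.03 and 8.16 on the KO arrays, against 5.84, 8.67 and 6.67 on the WT arrays. WT 2 lay within the KO range, while WT 1 and WT 3 lay below it. The difference was 1.35 (SE 0.73, adjusted p = 0.286). Rpl3l passed the threshold without WT 2 (2.16, adjusted p = 0.0289) and, in an alternative added once the values were known, without both replicate 2 arrays (1.85, adjusted p = 0.0183). Rps27l, a p53 target related to Rps27, read 13.93, 13.63 and 13.93 in the KO and 13.69, 13.63 and 13.69 in the WT (difference 0.16, adjusted p = 0.554). The probes representing Rpl7l1, related to Rpl7, and Rpl36al, related to Rpl36a, differed by −0.03 (95% interval −0.39 to 0.33) and −0.01 (95% interval −0.49 to 0.48). Rps19bp1, matched by its symbol, differed by 0.22 (adjusted p = 0.509).

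**Figure D2:**
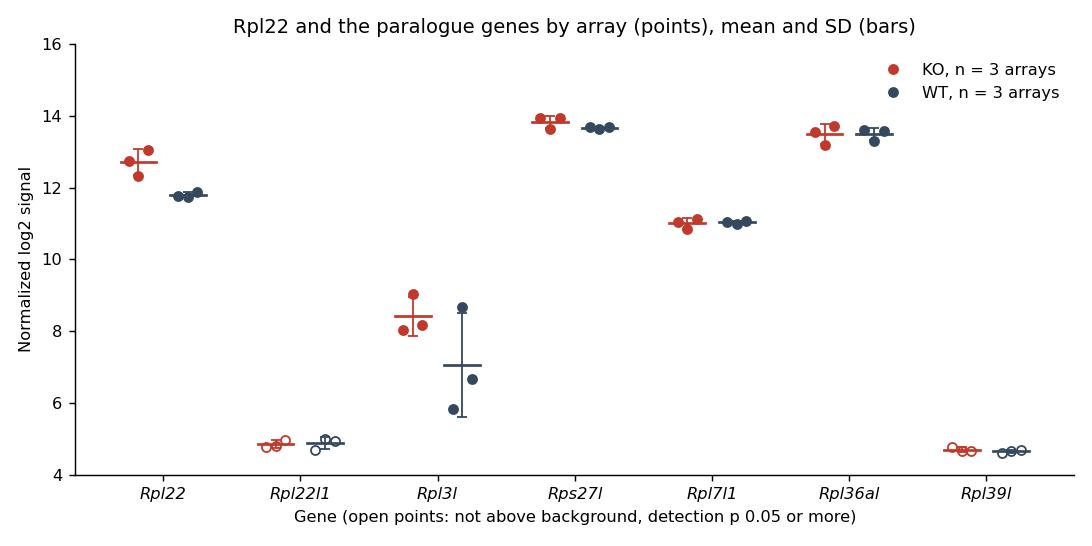
Normalized log2 signal of Rpl22 and the 6 paralogue genes on each array (points), with the mean and SD of the 3 KO arrays (left of each pair) and the 3 WT arrays (right); open points were not above background. The Rpl22 points of the genotypes are apart, Rpl22l1 and Rpl39l are at background on all arrays, and Rpl3l spreads most within WT.

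Among large-subunit genes, Rpl22 was the 1 call in 32 tested, and the median difference was −0.08. Of the 5 brightest of them, Rpl23 differed by −0.31 and the other 4 by less. Rpl41, the shortest protein of the ribosome, read 15.87, 15.60 and 15.85 in the KO and 15.88, 15.67 and 15.87 in the WT (difference −0.03, 95% interval −0.41 to 0.35). Rplp1 differed by −0.06 (95% interval −0.51 to 0.39), Rpl38 by −0.12 (adjusted p = 0.661) and Rpl9 by −0.01 (adjusted p = 0.971). Rpl5, which with the 5S ribosomal RNA and Rpl11 can bind the p53 ligase Mdm2, differed by −0.10 (95% interval −0.52 to 0.32). Rpl10, which is needed for the subunits to join, differed by −0.04 (adjusted p = 0.917). The lowest difference was that of Rpl24, with 8.33, 7.61 and 8.60 in the KO and 8.66, 8.42 and 8.60 in the WT (−0.38, adjusted p = 0.425), where KO 2 was the low array.

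Rpl23 was the 1 member whose KO arrays all lay below the WT arrays, a separation with the KO lower that 17.3% of all tested genes showed. Its brightest probe read 15.50, 15.25 and 15.58 in the KO and 15.81, 15.63 and 15.81 in the WT, a difference of −0.31 (SE 0.16, adjusted p = 0.271). The other 2 tested probes of Rpl23 pointed the other way, with differences of 0.11 (adjusted p = 0.662) and 0.25 (adjusted p = 0.556). The probes of Rpl23, whose protein can also bind Mdm2, thus did not share a direction. Of 10 members with more than 1 tested probe, Rpl23 and Rpl31 had differences of both signs, and the range between probes of a gene was 0.56 for Rpl23 and 0.07 for Rpl31.

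No small-subunit gene passed the threshold or had genotypes without overlap. Their 21 differences ran from −0.26 to 0.13, with a median of −0.11, and the 95% interval lay within a 2-fold change for all 21, each by its brightest probe. Dimmer tested probes of 4 of these genes differed more and with wider intervals. They gave −0.55 for Rps24 (95% interval −1.59 to 0.49), −0.44 for Rps9 (−0.97 to 0.10), −0.41 for Rps3 (−1.30 to 0.47) and 0.43 for Rps19 (−1.31 to 2.16), and none passed the threshold. Rps15, at the low end, read 13.26, 12.51 and 13.36 in the KO and 13.46, 13.05 and 13.39 in the WT (−0.26, adjusted p = 0.587). Rps7, at the high end, read 11.81, 11.54 and 12.18 in the KO and 11.80, 11.61 and 11.75 in the WT (0.13, adjusted p = 0.722). Rps6, the substrate of the S6 kinases, differed by 0.01 (95% interval −0.64 to 0.66), and Rps20 by 0.00 (95% interval −0.32 to 0.32). Rps14, whose loss contributes to the anaemia of the human 5q deletion syndrome, differed by 0.01 (95% interval −0.33 to 0.35).

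Within each genotype the subunit genes went up and down together. Of the 58 tested members, 55 were lowest on KO 2 among the KO arrays and 55 on WT 2 among the WT arrays. On both, 53 (91.4%) were lowest, as were 42.1% of all tested genes. Of 23 cytosolic translation factors and related genes, 56.5% were lowest on both, as were 48.5% of 33 ribosome biogenesis genes. On KO 2 alone, 22 of the 23 and 27 of the 33 were lowest among the KO arrays. The median deviation of the members from their own means was 0.07, −0.35 and 0.18 on the KO arrays, against 0.14, −0.14 and 0.11 on the WT arrays. The low arrays were thus KO 2 and WT 2, with the deeper dip in the KO. Their median SD between arrays was 0.32 in the KO and 0.17 in the WT, where all tested genes had 0.28 and 0.25. After each genotype's mean was removed, 49 of 53 subunit genes had a Pearson correlation above 0.8 with the median of the other subunit genes. This is a description over 6 arrays that share their RNA and scaling. The share of all tested genes above 0.8 was not computed. Of the subunit genes, Rps20 (0.34) and Rpl5 (0.66) followed the median least, and the paralogue Rpl3l ran against it (−0.74). Before normalization, Rps20 was lowest on KO 2 and WT 2. It gave 53316, 45213 and 54793 units in the KO, against 52970, 48738 and 55374 units in the WT. The part of the quantile step in its low correlation was not tested. The dip fell on the arrays with the highest heart and fat marker signals. The summed heart marker signal was 68369 units on KO 2 and 67385 on WT 2. It was 25472 units on KO 1, which did not show the dip. The part of heart and fat RNA in the dip was not tested.

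**Figure D3:**
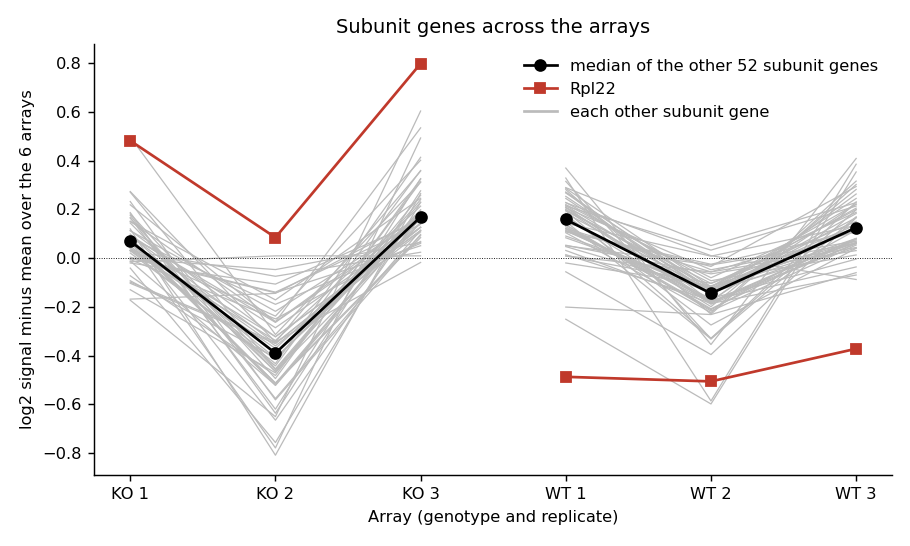
Deviation of each of the 53 tested subunit genes from its own mean over the 6 arrays (log2, vertical axis) on each KO array (left) and WT array (right). Grey lines are single genes, the black line is the median of the 52 other than Rpl22, and the red line is Rpl22. The median dips on KO 2 and WT 2, and Rpl22 is above it on every KO array and below it on every WT array. Rpl21 and Rpl39, among the grey lines, are so too.

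The median difference of the members was −0.02 without both replicate 2 arrays, the added alternative. Of the members, Rpl22 (1.07, adjusted p = 0.0147) and Rpl3l were then called, both higher in the KO, in a fit that called 15.2% of all genes higher and 14.0% lower.

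Rps19, mutated in human Diamond-Blackfan anaemia, had 2 tested probes that behaved differently. Its bright probe read 15.41, 14.69 and 15.38 in the KO and 15.32, 14.87 and 15.18 in the WT, with the dip of the other subunit genes. The dim probe of Rps19 read 7.37, 8.22 and 6.0 in the KO and 5.75, 7.85 and 6.71 in the WT, and was highest on KO 2 and WT 2. Its 6 arrays stood in the same order as the mean log2 signal of the 5 heart markers, which was 11.70, 13.48 and 5.95 in the KO and 5.86, 13.30 and 7.86 in the WT. The genotype differences of the probes were 0.04 (adjusted p = 0.939) for the bright and 0.43 (adjusted p = 0.745) for the dim one. Rpl3l was also highest on KO 2 and WT 2, and read 8.16 on KO 3, where the heart markers were low. The part of heart RNA in either signal was not tested.

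**Figure D4:**
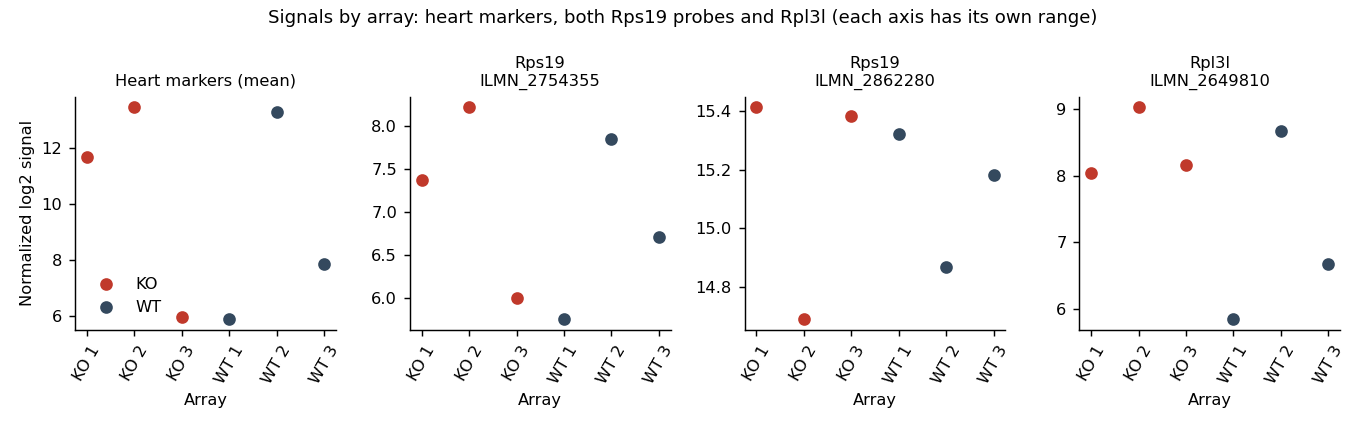
Normalized log2 signal on each KO and WT array (horizontal axis) of the mean of 5 heart markers, the dim and the bright Rps19 probe and Rpl3l, each panel with its own vertical range. The dim Rps19 probe has the array order of the heart markers, with KO 2 highest, while the bright probe is lowest on KO 2 and WT 2.

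Other genes of protein synthesis showed as few genotype calls. For all lists below, the shares over all tested genes were 6.09% called higher and 5.57% called lower. At an unadjusted p under 0.05 in limma they were 14.3% and 14.2%. Of 23 tested cytosolic translation factors and related genes, none passed (0 at an unadjusted p under 0.05 in limma; median −0.07). The elongation factor subunit gene Eef1g differed by 0.13 (adjusted p = 0.618) and the initiation factor gene Eif3f by −0.22 (adjusted p = 0.434). Of 33 ribosome biogenesis genes, Pes1 rose and none fell (1 lower at an unadjusted p under 0.05 in limma; median −0.06). Pes1, part of a complex that matures large-subunit RNA, read 10.30, 10.65 and 10.67 in the KO and 9.71, 9.35 and 9.30 in the WT (1.09, SE 0.19, adjusted p = 0.0226), and missed the threshold without KO 1, KO 3, WT 1 or WT 3 (adjusted p up to 0.107). Npm1 (−0.07, adjusted p = 0.867), a nucleolar chaperone, and Fbl (−0.16, adjusted p = 0.706), the methyltransferase of ribosomal RNA, did not pass.

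Proteins of the mitochondrial ribosome are encoded by a separate gene set, and 1 of its 69 tested genes rose and none fell (5 higher and 3 lower at an unadjusted p under 0.05 in limma; median 0.06). Mrpl51 read 8.41, 8.38 and 8.42 in the KO and 7.42, 7.61 and 7.35 in the WT (0.94, adjusted p = 0.0155), and it missed the threshold without KO 1, KO 3, WT 1 or WT 3 (adjusted p up to 0.0915) and as the mean of its probes (0.44, adjusted p = 0.110). Unlike the cytosolic set, 9 of the 69 (13%) were lowest on both KO 2 and WT 2. Among the WT arrays, 51 were highest on WT 2, as were 3351 of all 9849 tested genes. Of 6 tested genes of p53 and its regulation by ribosomal proteins, none passed (2 higher and 1 lower at an unadjusted p under 0.05 in limma). Their differences ran from −1.30 to 1.18. Ccng1, a p53 target, differed by 0.54 (adjusted p = 0.0955) and passed without both replicate 2 arrays (0.66, adjusted p = 0.0300). Of 10 tested growth regulators, none passed either (2 higher and 2 lower at an unadjusted p under 0.05 in limma). Their differences ran from −0.67 to 0.76, and the 2 brightest, Tsc2 and Max, differed by 0.12 and −0.04.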

How the data were processed

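The authors deposited linear probe intensities of the 6 arrays in a table they call non-normalized, and next to each the detection p-value of that probe, per the file headers, and GenomeStudio 2011.1 is named in the submitters' processing notes. A second deposited table holds log2 values, which differed by at most 5e-07 from the intensities after quantile normalization and log2. Intensities were background corrected from the detection p-values, quantile normalized and logged with neqc (offset 16) of limma 3.58.1 in R 4.3.3. Genotypes were compared with lmFit and eBayes without a block over the 14097 tested probes. This step was tested on simulated arrays whose noise was independent between probes, unlike the subunit genes here, which varied together. Figures used Python 3.11.15 and matplotlib 3.10.9. Symbols are GEO's platform annotation, and every member symbol matched the RefSeq table by gene ID.

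Replicate numbers come from the titles. Deviations of same-numbered KO and WT arrays correlated at 0.10, 0.75 and 0.56. KO 3 correlated more with WT 1 (0.73), and KO 1 correlated at 0.11 with WT 3. Xist differed between the same-numbered arrays 2 and between the arrays 3. Whether the numbers pair the samples is therefore not settled. The main fit used no block, and a block by replicate number changed no call on a member.

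Members, lists and tests were chosen with earlier results of these data known. Named by rule were Rpl22, Rpl22l1, the paralogues, up to 15 rises and 15 falls past the threshold, the 6 brightest members not past it, and per other list up to 4 called genes and the 2 brightest not called; other members named were chosen after their values were seen. The number of arrays limits precision.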

Additional observations from a re-analysis of the deposited data

How the results depend on the processing

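Rpl22 stayed higher in the KO under every alternative run, at 0.74 to 1.09, and missed the threshold with median centring (0.92), with no detection filter (0.91) and in 5 of the 6 fits without 1 array. With the replicate number as a block, its adjusted p was 0.0236 (0.91), and 12.4% of all genes were then called higher and 11.8% lower. The count of members called higher was 0 with median centring, 0 with no detection filter, 7 with array weights, 2 without both replicate 2 arrays and 0 to 1 without any 1 array. The count called lower was 13 with array weights and 0 in each of the other fits. The median difference of the members lay between −0.19 and 0.07 in the fits without 1 array. Of 377 values of other named genes, 358 kept their side of the threshold, 10 gained it and 9 lost it. Fits without 1 array called unlike shares of all tested genes. The share called higher was 0.67% without KO 1, 2.37% without KO 3, 0.883% without WT 1 and 0.751% without WT 3. It was 6.4% without KO 2 and 7.44% without WT 2, against 6.09% in the main fit. The share called lower ran from 0.853% without WT 3 to 7.85% without WT 2. The cause of the lost and gained calls was not tested. Rpl22l1 was not in the tested set. The fit with no detection filter included it, but its probe was at background on all arrays, so no difference is given. A chip block was not run because no header names the chip.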
